A study of Mus musculus with 2 samples.

Results

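The 33 genes described here encode proteins of the complement system (18 genes) and of blood coagulation and fibrinolysis (15 genes). They were listed by name, with earlier results of these data known, and all 33 were found among the 24421 gene symbols of the count table. RNA was taken from whole-layer back skin of wild-type C57BL6/J mice, in 1 library from skin stretched for 5 days from an initial strain of 33% and 1 from unstrained skin. The methods describe female mice 8 weeks old with hair follicles in telogen, the resting phase, and a stretching device glued to the back, whose strain was stepped up each day. The number of mice behind each library, and whether the control skin carried an unstretched device, are not given in the sources used here. Whole-layer skin holds epidermis, dermis, fat and striated muscle together, so the cells that made a transcript were not separated.

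Complement is a cascade of plasma and tissue proteins that tags microbes and damaged cells. It is started by C1q on bound antibody or dying cells (the classical pathway), by lectins, or by slow spontaneous activation of C3 that factor B and properdin amplify. Convertase enzymes then cut C3 and C5, which releases small peptides that attract leukocytes and leads to a membrane pore that contains C6 and C7. Coagulation begins when tissue factor meets plasma factors and ends with fibrin, which plasmin later removes. Most plasma components of both cascades are made by the liver, whereas macrophages, fibroblasts, keratinocytes and endothelial cells make some of them locally in skin.

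The counts summed to 14152379 in the control library and 11648655 in the stretched library. CPM are counts scaled to a common library total, and FPKM are CPM per kilobase of exon, so levels of different genes were compared only as FPKM. Differences are log2 ratios of CPM, stretched over control, with exact 95% Clopper-Pearson intervals. With 1 library per condition no difference has a replicate check and no test was possible. The intervals cover counting error only, and they compare these libraries and not the conditions. Over the 16255 genes with more than 3 counts in at least 1 library, which are called measured here, the median log2 ratio was -0.12. The labelled tissue matched its markers, since all 8 keratinocyte genes were measured, with summed levels of 15997 CPM in control skin and 16581 CPM in stretched skin.

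Complement genes that start and amplify the cascade, and the receptors for its peptides, were higher in stretched skin, while Cd55, Cd59a and Clu, which restrain it, were not. Of the 32 members that could be measured, 25 had an interval wholly above 0 (78.1%), against a background of 18.1% of all measured genes. The interval lay wholly below 0 for 4 members (12.5%), against 33.5% of all measured genes, and it included 0 for 3. Over all 16255 measured genes the interval included 0 for 7858. Intervals are narrower at higher counts, so such shares, here and below, depend on counts as well as on ratios. The background was not matched to the members by counts. The median log2 ratio was 1.07 over 18 complement members and 0.53 over 14 coagulation members, beside -0.12 over all measured genes, with counts of 3 or fewer set to 3 in these medians. By the filter and fold threshold of the methods, which ask for a product of the FPKM values (each with 1 added here) above 10 and a fold of at least 2, 28 members passed the filter. Of these, 11 were upregulated, where the background was 2.61% of the genes past the filter. Only Procr was downregulated, where the background was 2.44%. On the log2 scale of FPKM with 1 added, Procr (-1.03) and Plaur (1.05) lay just inside the threshold and C2 (0.91) just outside it.

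The scaling of the libraries moves the background more than the members. With the TMM factors of edgeR every log2 ratio would be 0.10 higher, and 24.1% of all measured genes would lie above 0 and 24.1% below it. The members would then be 25 above and 3 below.

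**Figure D1:**
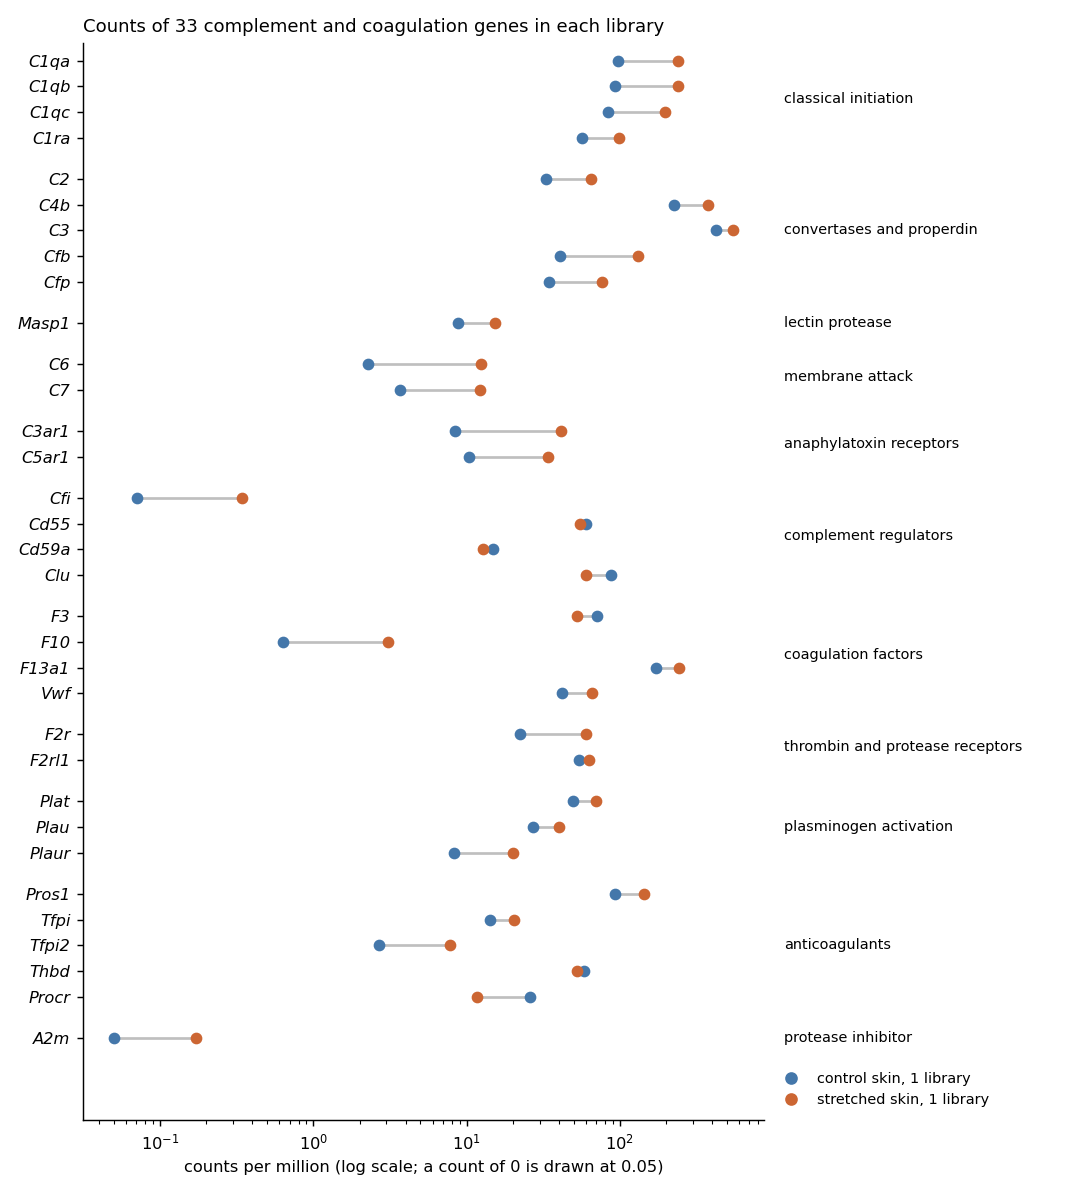
CPM of the 33 genes in control skin (blue) and stretched skin (orange), 1 library each, on a log axis and grouped by role. C3, C4b and F13a1 had the most counts, Cfi and A2m the fewest, and the orange point lies right of the blue one for every gene of the first 5 role groups.

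The 3 chains of C1q, the recognition molecule of the classical pathway, were the members most clearly higher at high counts. C1qa had 1370 counts in the control and 2810 in the stretched library, a log2 ratio of 1.32 (interval 1.22 to 1.41). C1qb had 1312 and 2775 counts (1.36, interval 1.27 to 1.46). C1qc had 1190 and 2298 counts (1.23, interval 1.13 to 1.33). The ratios of the 3 chains could not be told apart at this depth, since the change of the C1qb to C1qc count ratio was 0.13 (interval -0.01 to 0.27) and those of the other pairs were -0.04 and 0.09, with intervals that included 0. Per length, C1qa and C1qb held the highest levels of all members in both libraries, with 93.1 and 85.2 FPKM in control skin and 232 and 219 FPKM in stretched skin. C1qc stood at 43.5 and 102 FPKM, and C3, at 82.8 FPKM in control skin, was close to C1qb there.

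The C1q genes lie side by side on the minus strand of chromosome 4 of mm10, with C1qb from 136880129 to 136886187, C1qc from 136889804 to 136893065 and C1qa from 136895917 to 136898803. The gaps between them are 3616 and 2851 bases, and none of the 3 shares a 76-base stretch with another gene. Promoters are shown for C1qb and C1qc, as neighbours with like ratios, and for C3ar1 and Procr, chosen after their values were seen as the member with the largest fold among the upregulated genes and the downregulated member. The sequences are RefSeq, GRCm38.p6, and give the 250 bases before the annotated start, 5′ to 3′ on the strand of the gene. Capitals mark matches on either strand to GAGGAA (the PU.1 core), TTCNNNGAA (STAT), GAAANNGAA (IRF) or TGANTCA (AP-1), and no match overlaps another. They lie at chr4:136886201-136886450 (minus strand), chr4:136892915-136893164 (minus strand), chr6:122856158-122856407 (minus strand) and chr2:155750967-155751216 (plus strand).
C1qb: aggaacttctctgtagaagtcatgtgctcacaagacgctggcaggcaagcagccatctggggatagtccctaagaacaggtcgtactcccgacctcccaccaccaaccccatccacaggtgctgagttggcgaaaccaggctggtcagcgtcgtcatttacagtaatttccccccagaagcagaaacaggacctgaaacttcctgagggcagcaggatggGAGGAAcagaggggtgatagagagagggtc
C1qc: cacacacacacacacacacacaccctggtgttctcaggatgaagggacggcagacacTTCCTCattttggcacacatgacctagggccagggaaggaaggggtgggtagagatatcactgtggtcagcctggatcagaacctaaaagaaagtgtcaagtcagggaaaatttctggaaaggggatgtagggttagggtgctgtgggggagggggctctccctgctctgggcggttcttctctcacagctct
C3ar1: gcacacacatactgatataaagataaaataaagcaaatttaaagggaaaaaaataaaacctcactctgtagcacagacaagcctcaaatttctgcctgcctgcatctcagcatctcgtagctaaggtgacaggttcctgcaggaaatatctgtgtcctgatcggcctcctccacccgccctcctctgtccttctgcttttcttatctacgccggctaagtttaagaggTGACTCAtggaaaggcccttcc
Procr: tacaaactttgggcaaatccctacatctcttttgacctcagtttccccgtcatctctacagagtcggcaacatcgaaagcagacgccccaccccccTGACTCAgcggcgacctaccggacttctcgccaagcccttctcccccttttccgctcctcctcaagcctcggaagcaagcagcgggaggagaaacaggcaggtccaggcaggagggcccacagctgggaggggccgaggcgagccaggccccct

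The PU.1 letters stood at position -30 from the start in C1qb and at -193 in C1qc, on opposite strands. The AP-1 letters stood at position -22 in C3ar1 and at -154 in Procr. These are the genes whose ratios lay farthest apart among the 4 shown, and both hold the same 7 letters. Promoters were found for 20 of the 33 members. The PU.1 letters were in 5 of the 20 (25%), against 23.1% of 27025 promoters of this length, and the AP-1 letters were in 5 (25%), against 6.87%. The STAT letters were in 2 (10%, against 7.18%) and the IRF letters in 2 (10%, against 7.16%). C3ar1, F3, F2r, Plaur and Procr held the AP-1 letters, of which 3 were upregulated, 1 was downregulated and F3 was lower within the threshold. A match is a description of letters and not a binding site.

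C1ra, the protease that C1q activates first, had 800 counts in the control and 1148 in the stretched library (0.80, interval 0.67 to 0.93). It was higher, but by less than the C1q chains, and its value is uncertain because 42.1% of its 76-base stretches occur in its near-copy C1rb, which was listed at 0 and 1 counts.

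The convertase genes were all higher in stretched skin, by different amounts. C4b, the scaffold of the classical convertase, had 3190 and 4378 counts (0.74, interval 0.67 to 0.80). C2, its catalytic subunit, had 464 and 760 counts (0.99, interval 0.82 to 1.16). C3, on which all pathways converge, had the most counts of any member, 6025 in the control and 6375 in the stretched library (0.36, interval 0.31 to 0.41). All of these were higher in stretched skin and none passed the fold threshold. Cfb, which encodes factor B, the C2 counterpart of the alternative pathway, had 580 and 1521 counts (1.67, interval 1.53 to 1.81). Cfp, which encodes properdin, the protein that stabilizes the alternative convertase, had 492 and 894 counts (1.14, interval 0.98 to 1.30). These alternative pathway genes were both upregulated. Per length, the ratio of Cfb to C3 was 0.175 in the control and 0.434 in the stretched library, a log2 change of 1.31 (interval 1.16 to 1.46). Both genes were thus higher, Cfb by more than C3, and the value of Cfb is uncertain because of the shared stretches described next.

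Cfb and C2 are adjacent on chromosome 17 of mm10, 85 bases apart, from 34856374 to 34862518 and from 34862604 to 34898265. An annotated gene that runs through both, Gm20547, holds 69.7% of the 76-base stretches of Cfb and 39.1% of those of C2. It has no row in the count table, and how reads in the shared exons were assigned is not given in the sources used here. Cfb and C2 nevertheless differed, with a change of their count ratio of 0.68 (interval 0.46 to 0.90). C4b, from 34728380 to 34743882 on the same chromosome, shares 22.3% of its stretches with other genes, mostly C4a, which had 11 and 22 counts. Masp1, a protease of the lectin pathway, had 125 and 179 counts (0.80, interval 0.46 to 1.14) and did not pass the filter on FPKM.

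Genes of the membrane pore had few counts and large ratios. C6 had 32 counts in the control and 145 in the stretched library, a log2 ratio of 2.46 (interval 1.90 to 3.06), the largest among the members. C7 had 52 and 142 counts (1.73, interval 1.26 to 2.22). Both were higher in stretched skin, but at 0.636 and 3.50 FPKM C6 did not pass the filter, whereas C7 was upregulated at 1.37 and 4.56 FPKM. The call for C7 depends on the 1 added to each FPKM value, and with 0 or 0.1 added it did not pass the filter. C6 and C7 lie on chromosome 15, 173794 bases apart. Of the later pore genes, C8g had 26 and 16 counts (-0.42, interval -1.42 to 0.53), C9 had 5 and 2, C8a had 1 and 0, and C8b was listed at 0 in both libraries.

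The receptors for the complement peptides were both upregulated. C3ar1, the receptor for the peptide cut from C3, had 119 counts in the control and 478 in the stretched library, a log2 ratio of 2.29 (interval 1.99 to 2.59). C5ar1, a receptor for the peptide cut from C5, had 146 and 397 counts (1.72, interval 1.45 to 2.01). The difference was larger for C3ar1, whose FPKM relative to that of C5ar1 was 0.487 in the control and 0.719 in the stretched library, a log2 change of 0.56 (interval 0.16 to 0.96). Hc, the mouse gene for C5 itself, had 1 and 2 counts, below what can be measured.

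The regulators that limit complement did not share these higher values. Cd55, a membrane protein that speeds the decay of convertases, had 846 counts in the control and 638 in the stretched library (-0.13, interval -0.28 to 0.02). Cd59a, which blocks pore assembly, had 209 and 149 counts (-0.21, interval -0.52 to 0.10). For both, no difference was detectable at this depth. Clu, which encodes the secreted chaperone clusterin, had 1245 and 700 counts and was lower (-0.55, interval -0.69 to -0.42), though within the fold threshold. Cfi, the protease that inactivates C3b and C4b, had 1 and 4 counts, a log2 ratio of 2.28 with an interval from -1.06 to 7.90. The range of Cd55 and Cd59a in FPKM, 12.3 to 11.3 and 8.15 to 7.06, was narrow beside that of Cfb, 14.5 to 46.2.

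**Figure D2:**
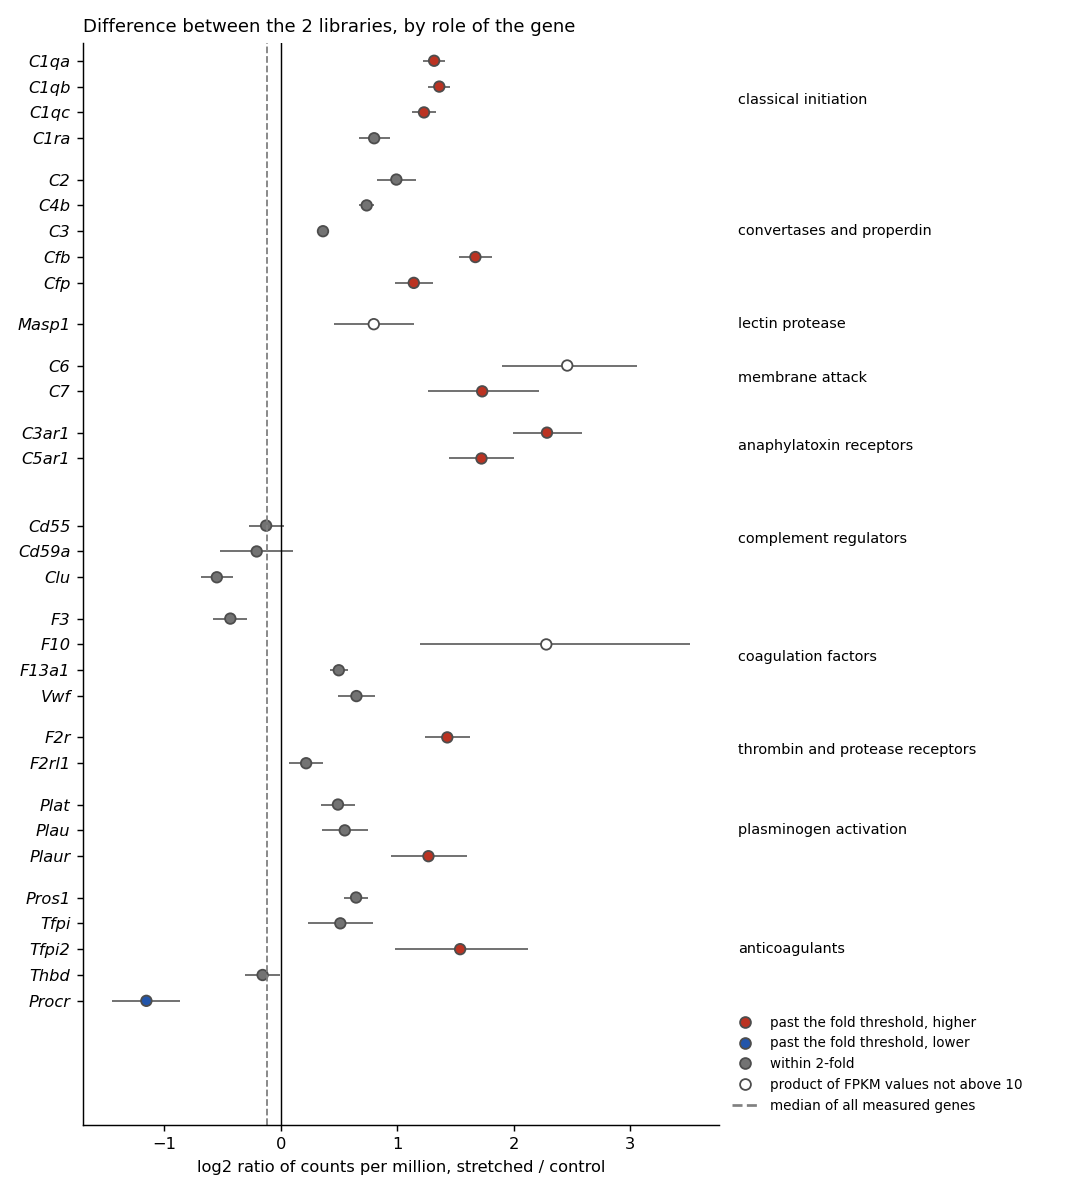
Log2 ratio of CPM, stretched over control, for 31 members (points) with exact 95% counting intervals (bars), grouped by role. Red points were upregulated and the blue point, Procr, downregulated by the fold threshold; Cfi (interval -1.06 to 7.90) and A2m (0 and 2 counts) are not drawn, and the complement groups above the regulators lie wholly right of 0.

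Coagulation factors went both ways. F3, which encodes tissue factor, the initiator of clotting, had 1001 counts in the control and 610 in the stretched library (-0.43, interval -0.58 to -0.29). F13a1, the catalytic chain of factor XIII that crosslinks fibrin, had 2448 and 2846 counts (0.50, interval 0.42 to 0.58). Vwf, the von Willebrand factor of endothelium and platelets, had 594 and 767 counts (0.65, interval 0.49 to 0.81). The initiator was thus lower, and the crosslinker and the adhesive protein were higher, with no value past the fold threshold. F10, factor X, had 9 and 36 counts (2.28, interval 1.20 to 3.52) and did not pass the filter on FPKM.

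The cell receptors cut by clotting proteases differed from each other. F2r, the thrombin receptor PAR1, had 316 and 701 counts and was upregulated (1.43, interval 1.24 to 1.63). F2rl1, its relative PAR2, which trypsin-like proteases cut, had 768 and 735 counts (0.22, interval 0.07 to 0.37). The genes are neighbours on chromosome 13, with 76575 bases between them. In control skin F2r stood at 6.69 FPKM and F2rl1 at 19.8 FPKM, and in stretched skin at 18.0 and 23.0 FPKM. The change of their count ratio was 1.21 (interval 0.97 to 1.45).

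Genes of plasminogen activation were all higher in stretched skin. Plat, the tissue plasminogen activator, had 702 and 812 counts (0.49, interval 0.34 to 0.64). Plau, urokinase, had 386 and 465 counts (0.55, interval 0.35 to 0.75). Plaur, the urokinase receptor, had 118 and 234 counts and was upregulated (1.27, interval 0.94 to 1.60). The receptor was higher by more than its ligand, with a change of the Plaur to Plau count ratio of 0.72 (interval 0.35 to 1.09), whereas the activators could not be told apart (0.06, interval -0.18 to 0.30).

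Of the 5 anticoagulant genes, 3 had intervals above 0 and 2 below. Pros1, protein S, the cofactor of activated protein C, had 1309 and 1687 counts (0.65, interval 0.54 to 0.75). Tfpi, the inhibitor of tissue factor, had 202 and 237 counts (0.51, interval 0.23 to 0.79). Tfpi2, a related matrix inhibitor, had 38 and 91 counts (1.54, interval 0.98 to 2.13) and was upregulated at 1.54 and 4.47 FPKM, a call that was likewise lost with 0 or 0.1 added. These 3 genes encode secreted proteins, and the remaining ones encode membrane receptors that act in the activation of protein C. Thbd, thrombomodulin, had 826 and 610 counts (-0.16, interval -0.31 to -0.0037), close to the median of all measured genes, and with each of the 4 other scalings its interval included 0. Procr, the endothelial protein C receptor, had 368 counts in the control and 136 in the stretched library, a log2 ratio of -1.16 (interval -1.45 to -0.87), the lowest of the members. With 1 added to its FPKM values of 12.8 and 5.75 the log2 ratio was -1.03, so the call was lost with each of the 4 other scalings, which add 0.06 to 0.11. The FPKM of F3 relative to that of Tfpi was 10.7 in the control and 5.56 in the stretched library, a log2 change of -0.95 (interval -1.25 to -0.64). A2m, a broad protease inhibitor, had 0 and 2 counts, both at or below the floor of 3 counts, and no ratio is given. That floor corresponds to 0.212 CPM in control skin and 0.258 CPM in stretched skin.

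Other genes of the same cascades were taken from separate lists. Of 37 other complement genes 27 could be measured, with 12 intervals above 0 (44.4%, against 18.1% of all measured genes), 3 below (11.1%, against 33.5%) and a median of 0.29. The upregulated genes were the 2 subunits of complement receptor 3, Itgam (388 and 752 counts, 1.24, interval 1.06 to 1.42) and Itgb2 (310 and 611 counts, 1.26, interval 1.06 to 1.46), and Serping1. Itgam is uncertain, because 65.2% of its 76-base stretches occur in an overlapping annotated gene, Gm49368. Serping1 encodes the C1 inhibitor, and it had 4728 and 7897 counts (1.02, interval 0.97 to 1.07). It was thus higher, where Clu was lower. Itgax, which pairs with Itgb2 in complement receptor 4, had 47 and 152 counts (1.97, interval 1.49 to 2.48) and did not pass the filter. The genes with intervals below 0, named after their values were seen, were Cfd, Masp2 and Vtn. Masp2 is uncertain, since 51.3% of its stretches lie in exons of Tardbp on the opposite strand. Cfd, the adipocyte protease that activates factor B, had 17657 and 9353 counts (-0.64, interval -0.67 to -0.60), opposite to its substrate Cfb. Cfd is also among the adipocyte markers, all 6 of which were lower in stretched skin.

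Of 36 other coagulation and fibrinolysis genes 22 could be measured, with 8 intervals above 0 (36.4%, against 18.1% of all measured genes), 2 below (9.09%, against 33.5%) and a median of 0.50. The fibrinogen genes Fga, Fgb and Fgg, and F9, F11 and F13b, were listed at 0 in both libraries, and 14 of the 36 genes were at or below 3 counts. The genes with intervals below 0, named after their values were seen, were F5 (133 and 69 counts) and Adamts13 (9 and 0 counts).

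**Figure D3:**
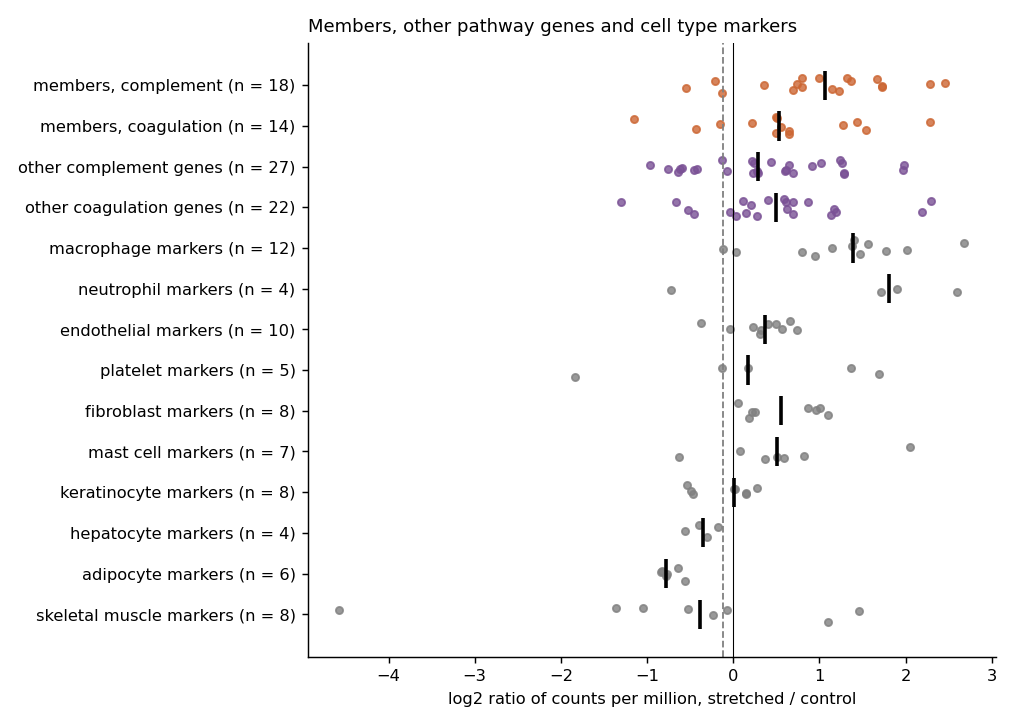
Log2 ratios of the measured members, the other genes of both cascades and the marker genes of 10 cell types (points, spread vertically for view), with list medians (black bars) and the median of all measured genes (dashed line). Counts of 3 or fewer are set to 3; the complement members (median 1.07) lie between the other complement genes (0.29) and the macrophage markers (1.39).

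Most measured markers of macrophages and neutrophils differed in the same direction as most complement genes. All 12 macrophage markers were measured and none was at 0, and 8 were upregulated. Their summed level was 820 CPM in control skin and 1785 CPM in stretched skin, a log2 ratio of 1.12 (interval 1.09 to 1.16), and the single genes ranged from -0.12 for Mertk to 2.68 for Fcgr1. Lyz2 had the most counts, 3975 and 8471. Of 8 neutrophil markers 4 were measured, with a sum of 11.2 and 47.6 CPM. Most of these counts came from S100a8 (57 and 283) and S100a9 (69 and 187). Cxcr2 had 25 and 77 counts (1.90, interval 1.24 to 2.62). Camp went the other way, with 6 and 3 counts (-0.72, interval -3.35 to 1.51). Ngp was listed at 0, Mpo and Elane were at or below 3 counts, and Ly6g has no row in the table. In whole tissue, more cells of a type and more RNA per cell cannot be told apart. The part of leukocyte number in the member ratios was not tested.

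Relative to the summed macrophage markers of the same library, the C1q genes differed less between the libraries. Per 1000 macrophage marker counts, C1qa had 118 counts in the control and 135 in the stretched library, a log2 change of 0.20 (interval 0.10 to 0.29), and C1qb (0.24) and C1qc (0.11) were alike. Cfp, at 42.4 and 43.0, had a change of 0.02 (interval -0.14 to 0.18). C3ar1 was higher even on this scale, at 10.3 and 23.0 (1.16, interval 0.87 to 1.46), as were C5ar1 (0.60, interval 0.33 to 0.88), Cfb (0.55, interval 0.41 to 0.69) and C6 (1.34, interval 0.79 to 1.89). F13a1 was lower, at 211 and 137 (-0.62, interval -0.71 to -0.54). Of the 32 members compared on this scale, 10 had an interval above 0, 16 had one below 0 and 6 had one that included 0. Among the others with intervals below 0 were C3 (-0.76), C4b (-0.38), C1ra (-0.32), Clu (-1.67) and F3 (-1.56), and among those above 0 were C7 (0.61), F2r (0.31) and F10 (1.16). These intervals are normal approximations on the log scale and cover counting error of the gene and the marker sum. Lyz2 had the most counts in that sum, and single markers ranged from -0.12 (Mertk) to 2.68 (Fcgr1). The ratio of C3ar1 (2.29) lay between those of Mpeg1 (2.02) and Fcgr1, so a change on this scale depends on the markers.

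The 10 endothelial markers summed to 338 and 439 CPM, a log2 ratio of 0.38 (interval 0.32 to 0.43), with none upregulated or at 0. Relative to them Vwf was 0.27 higher (interval 0.11 to 0.44) and Tfpi 0.14 (interval -0.14 to 0.41), while Thbd was at -0.53 (interval -0.69 to -0.37) and Procr at -1.53 (interval -1.82 to -1.24). Among the endothelial markers Eng had the most counts (1070 and 1164). Platelet markers were sparse, with 5 of 8 measured, Gp6 listed at 0, and sums of 17.9 and 32.6 CPM. The higher sum came mostly from Itga2b (127 and 269 counts, 1.36, interval 1.05 to 1.68). Gp1bb (99 and 92 counts), Gp1ba (12 and 9) and Ppbp (2 and 8) had intervals that included 0. Gp5 was lower, at 13 and 1 counts (-3.42, interval -8.83 to -0.68). Of the 8 hepatocyte markers Apob and Fgb were listed at 0 and 4 were measured, with sums of 91.8 and 80.1 CPM, mostly from Cyp2e1 (1202 and 874 counts).

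Relative to keratinocyte markers, whose sum had a log2 ratio of 0.05, F3 was at -0.49 (interval -0.63 to -0.34) and Clu at -0.60 (interval -0.74 to -0.47). The fibroblast markers were higher in stretched skin, with 8 of 8 measured and sums of 41382 and 77665 CPM, mostly from collagen genes such as Col3a1 (199708 and 319618 counts). Relative to them C1ra (-0.11, interval -0.24 to 0.02) and C2 (0.08, interval -0.08 to 0.25) had intervals that included 0. The collagens carry this sum, and the ratios of Dcn (0.06), Pdgfra (0.18), Dpt (0.22) and Lum (0.25) were below those of C1ra (0.80) and C2 (0.99), while that of Fbln1 was 1.10. Mast cell markers summed to 260.5 and 360.0 CPM, adipocyte markers to 2437 and 1556 CPM, and skeletal muscle markers to 28797 and 17646 CPM. The muscle markers went both ways, with Myh4 (-4.57), Atp2a1 (-1.36) and Ckm (-1.05) lower, Myh2 (1.46) and Mb (1.09) higher and Acta1 at -0.07. The part of these cell types in the member values was not tested.

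**Figure D4:**
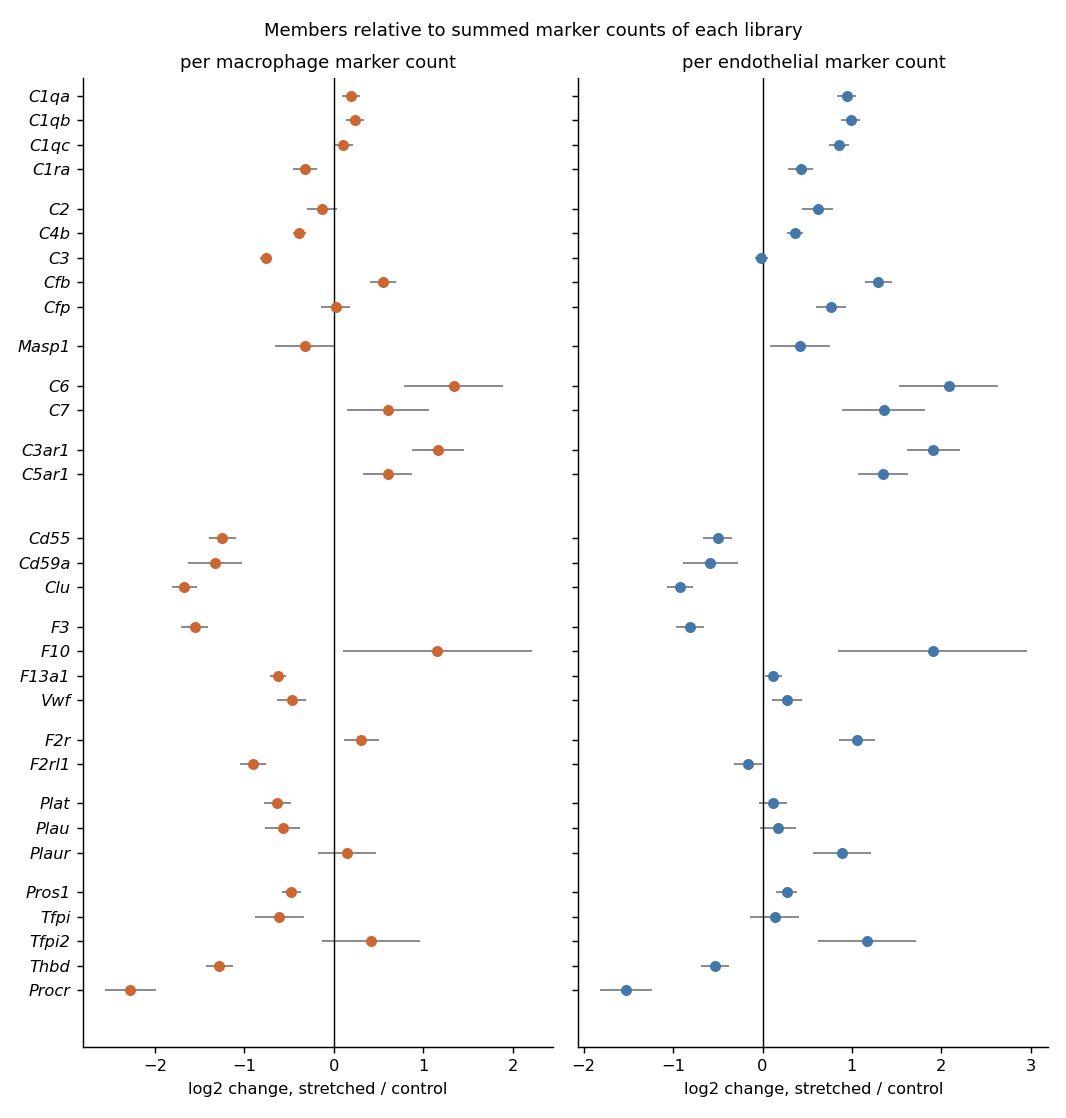
Log2 change, stretched over control, of each member's count relative to the summed counts of 12 macrophage markers (left) and 10 endothelial markers (right), with 95% counting intervals. C1qa, C1qb, C1qc and Cfp lie near 0 on the left, where C3ar1 is at 1.16, and Procr is the lowest point in both panels, at -2.28 and -1.53; Cfi and A2m are not drawn.

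The order of levels within a library changed little at the top. In FPKM the first 5 members were C1qa, C1qb, C3, C1qc and C4b in both libraries, and C3 and C1qc differed little in stretched skin (106 and 102 FPKM). Cfb moved from rank 14 in control skin to rank 6 in stretched skin, from 14.5 to 46.2 FPKM. F3 moved from rank 6 (28.0 FPKM) to rank 12 (20.7 FPKM), and Procr from rank 15 (12.8 FPKM) to rank 24 (5.75 FPKM). At the other end, Masp1, C6, F10, Cfi and A2m held the last 5 ranks in control skin, and Cfi and A2m stayed last in stretched skin.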

How the data were processed

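Whole-layer skin RNA was prepared as TruSeq libraries and sequenced as single-end reads of 76 bases. The authors quality-filtered the reads and aligned them to mm10 with TopHat2. The deposited table holds whole-number counts per gene symbol, not normalized, and the counter, its annotation and its use of strand are not given in the sources used here. Its library totals limit genes with few counts most.

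FPKM was computed here, not taken from the authors, from the counts, the totals and the union of exons in GENCODE M21, where 23376 symbols matched by name, 651 by a synonym and 394 had no length. The FPKM pseudocount of 1 is a choice made here. A symbol's 76-base stretches were compared with all M21 transcripts on both strands. Members, roles and gene lists were chosen with earlier results of these data known. Named genes are all members, other pathway genes past the fold threshold or with at least 100 counts and a fold of 2, and markers with the most counts or at 0. Further markers were named after their values were seen, to show the spread within a list. Intervals of ratios between genes, and of genes against marker sums, are normal approximations on the log scale. No protein sequences are shown, and 1 of the named coagulation genes is not reported here. Alternatives were 4 scalings (edgeR 4.0.16, DESeq2 1.42.0), pseudocounts, filters, CPM and transcript length. Python 3.11.15, scipy 1.17.1 and R 4.3.3 were used.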

Additional observations from a re-analysis of the deposited data

How the results depend on the processing

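No paired analysis was possible because each condition has 1 library, and for the same reason none was left out. The 11 upregulated members were 9 to 12 under 9 of 10 alternatives and 6 with a product of FPKM values above 100, which tests fewer genes. Procr, the 1 downregulated member, was not called with TMM, median of ratios, upper quartile, totals that leave out the top 50 genes, or a product above 100 (0 members each). C2 was added by the first 3 of these scalings, and C6 with no filter or with CPM in place of FPKM. C7 and Tfpi2 were lost with a pseudocount of 0 or 0.1. The median over the 32 measured members ranged from 0.67 to 0.88 over 7 alternatives, that of the complement members from 1.05 to 1.19 and that of the coagulation members from 0.51 to 0.64. Of 128 single-gene values under 4 scalings, 19 moved past their counting interval, in 7 members, and 0 reversed. Depth limits Cfi, A2m, F10, C6 and Tfpi2 most.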

Other observations

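Summed by role, a grouping looked at after the values were seen, the members of classical initiation went from 330 to 775 CPM and the receptors for complement peptides from 18.7 to 75.1 CPM. The complement regulators among the members went from 163 to 128 CPM. Serping1, a regulator outside this sum, went from 334 to 678 CPM, so the direction of a regulator sum depends on whether Serping1 is counted in it.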
